A study of Mus musculus with 6 samples.

Results

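The mouse genes named Zfp500 to Zfp999 encode zinc finger proteins, and their mRNA levels were compared between embryonic stem cells that express the transcription factor SIM2 and cells that do not. Of 22602 genes in the table, 171 carry such a name, and 161 of these lie off chromosomes 12, 14 and 15. The 134 of them whose mean level over the 6 libraries reached 1 RPKM (reads per kilobase of cDNA, scaled to the depth of the library) are described here. Of the other 27, which stayed under this limit, 2 (Zfp616 and Zfp735) were listed at 0 in all 6 libraries. Just inside the limit were Zfp658 with a mean of 1.07 RPKM and Zfp629 with 1.08, and just outside it were Zfp758 with 0.973 and Zfp536 with 0.960. The 10 genes of these names on chromosomes 12, 14 and 15 were not analysed here.

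The Sim2 group holds 1 culture of each of 3 clones (A6, B8 and C4), in which a Flag-tagged mouse Sim2 gene with an IRES-Venus reporter sits at the ROSA26 locus behind a modified human CMV promoter that a tetracycline-regulated transactivator switches on when the drug is removed. The control group holds 3 cultures (EB3-0, EB3-1 and EB3-2) of the parental EB3 (EBRTcH3) line, which lacks the Sim2-Flag transgene. The paper reports that Venus was induced in this line too. All 6 cultures were deprived of tetracycline for 26 h, and the presence of the transgene and the derivation of a clone cannot be told apart in this design. The comparison asks which transcripts differ when SIM2 is present.

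Most of these proteins contain tandem C2H2 zinc fingers, short loops held by a zinc ion that read DNA sequence. Many also begin with a KRAB box, a domain that recruits the corepressor TRIM28 (also called KAP1) and, through it, the histone methyltransferase SETDB1, so that the bound DNA is packed into heterochromatin. In embryonic stem cells this machinery is known for silencing endogenous retroviruses and other transposable elements. The genes arose by repeated tandem duplication, which is why many of them sit side by side in clusters and share much of their sequence.

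Of the 134 members, 133 had a protein-coding transcript of the NCBIM37 (mm9) annotation. A KRAB box was found by sequence pattern in 79 of them and not in 54, and the remaining gene, Zfp862, had no transcript to search. A box that departs from the pattern would be missed. Members without the box are therefore those in which the pattern was not found, and some of them may hold one. The median number of fingers matching the C2H2 pattern was 12 with a KRAB box and 7 without, and Zfp619 had the most, with 33. No match to the strict pattern was found in 3 members (Zfp609, Zfp704 and Zfp750). Mean levels ran from 1.07 to 83.5 RPKM, with a median of 4.77 RPKM for KRAB members and 10.1 RPKM for those without the box, beside 12.8 RPKM over all 11595 tested genes. Levels are set side by side between genes only on this per-length scale. KRAB members also had transcripts poor in G and C, with a median GC content of 41.7% against 54.2% for members without the box and 51.0% for all tested genes.

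The libraries themselves were alike in depth, from 25095861 to 28269340 reads, and Sim2 stood at 168 to 212 RPKM in the clones and at 0.0917 to 0.130 RPKM in EB3. The stem cell genes Pou5f1, Nanog, Sox2, Zfp42 and Esrrb summed to 2847 to 3072 RPKM in the clones and 3014 to 3353 RPKM in EB3. Among them Zfp42 was lower in every clone, at 415 to 439 RPKM against 511 to 536 in EB3. Esrrb was higher in every clone, at 299 to 450 against 276 to 284. For Pou5f1, Nanog and Sox2 the groups overlapped, and none of these stem cell genes was called. The summed levels were 10.7 to 13.8 and 10.01 to 13.3 RPKM for 3 fibroblast genes, 1.67 to 1.92 and 0.764 to 1.34 for 4 endoderm genes, and 11.0 to 15.5 and 9.70 to 11.9 for 3 neural genes, with Afp at 0 in 4 libraries. The part of such cells in the results was not tested. The control EB3-0 stood apart from the others, which bears on many values given here. It was below both EB3-1 and EB3-2 in 94 of the 134 members (70.1%), beside 45.5% of all tested genes.

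The sequences upstream of 6 members are shown. Apart from Zfp935, these genes had the largest differences among the members. Zfp935 is shown as a neighbouring copy of Zfp808 and Zfp934, and the runs show how alike recent copies are. Each run is the 250 bases before the listed start of the gene in mm9, read 5′ to 3′ on the strand of the gene, and capitals mark CCAAT or its reverse complement ATTGG, the box bound by the general promoter factor NF-Y. Zfp951 lies on chromosome 5 with no other member within 500 kb (chr5:105289088-105289337, minus strand). Zfp808 (chr13:62231000-62231249, plus strand), Zfp934 (chr13:62659960-62660209, minus strand) and Zfp935 (chr13:62568173-62568422, minus strand) form a cluster. Zfp534 (chr4:147076663-147076912, minus strand) and Zfp600 (chr4:146123975-146124224, plus strand) lie on chromosome 4.
Zfp951: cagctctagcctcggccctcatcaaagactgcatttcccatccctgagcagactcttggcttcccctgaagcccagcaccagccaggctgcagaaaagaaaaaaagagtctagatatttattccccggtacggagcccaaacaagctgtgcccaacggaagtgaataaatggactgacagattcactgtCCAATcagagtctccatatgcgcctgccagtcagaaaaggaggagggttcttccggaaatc
Zfp808: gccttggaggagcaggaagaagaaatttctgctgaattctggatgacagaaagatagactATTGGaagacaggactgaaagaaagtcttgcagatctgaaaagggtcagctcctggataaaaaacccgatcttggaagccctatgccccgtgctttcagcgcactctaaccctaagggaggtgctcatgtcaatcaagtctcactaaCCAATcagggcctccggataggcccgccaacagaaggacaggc
Zfp934: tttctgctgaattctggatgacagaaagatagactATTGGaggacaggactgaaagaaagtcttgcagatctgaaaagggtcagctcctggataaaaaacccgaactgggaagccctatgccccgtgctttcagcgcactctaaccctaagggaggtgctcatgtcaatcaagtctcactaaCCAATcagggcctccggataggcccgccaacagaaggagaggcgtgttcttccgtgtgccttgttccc
Zfp935: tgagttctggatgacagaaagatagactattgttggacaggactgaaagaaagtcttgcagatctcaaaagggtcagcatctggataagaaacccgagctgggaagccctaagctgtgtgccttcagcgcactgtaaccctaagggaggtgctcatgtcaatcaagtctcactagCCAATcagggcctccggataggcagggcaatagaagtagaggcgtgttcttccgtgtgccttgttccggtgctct
Zfp534: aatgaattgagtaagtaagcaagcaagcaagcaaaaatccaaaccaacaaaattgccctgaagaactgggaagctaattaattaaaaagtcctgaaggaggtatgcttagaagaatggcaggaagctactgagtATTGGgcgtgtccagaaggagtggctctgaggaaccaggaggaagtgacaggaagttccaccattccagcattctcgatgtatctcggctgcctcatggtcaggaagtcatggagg
Zfp600: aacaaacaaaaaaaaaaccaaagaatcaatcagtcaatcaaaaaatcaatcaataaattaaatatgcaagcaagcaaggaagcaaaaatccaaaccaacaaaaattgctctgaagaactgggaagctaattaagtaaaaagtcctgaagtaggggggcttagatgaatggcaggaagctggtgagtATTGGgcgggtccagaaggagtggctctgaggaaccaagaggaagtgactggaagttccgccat

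Zfp808 and Zfp934 shared 98.2% of 225 aligned bases in these windows, Zfp934 and Zfp935 shared 91.7% of 242, and Zfp534 and Zfp600 shared 90% of 199. The highest identity between any pair of members was 99.6% of 225 bases, for Zfp942 and Zfp944 on chromosome 17. CCAAT on either strand was present in 54 of the 79 KRAB member windows (68.4%), in 18 of 54 windows of members without the box (33.3%) and in 4217 of 11595 windows of all tested genes (36.4%). This motif was chosen after the sequences had been read. The 5 letters ACGTG, the core that SIM2 binds with its partner ARNT, or their reverse complement CACGT, were in none of the 6 windows shown. They were in 29 of 134 member windows (21.6%) and in 2582 of the 11595 windows (22.3%), and neither motif overlaps the other. By class, they were in 21 of the 79 KRAB windows (26.6%) and in 8 of the 54 without the box (14.8%). The median GC content of the windows was 51.2% for KRAB members, 62.4% for members without the box and 60.8% for all tested genes. A match of letters is a description of the window and not a binding site.

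Zfp951, a KRAB gene with 10 fingers (chromosome 5, 105242187 to 105289087, minus strand), had by far the largest difference among the members. Clones A6, B8 and C4 had 0.165, 0.628 and 0.317 RPKM of it, and cultures EB3-0, EB3-1 and EB3-2 had 3.04, 5.68 and 4.91 RPKM. The lowest EB3 culture was 4.84 times the highest clone, so the groups did not come near each other. These levels stand on 12, 47 and 26 reads in the clones and on 241, 441 and 372 reads in EB3. The mean of the 3 clones was 0.370 ± 0.236 RPKM and that of the 3 cultures 4.54 ± 1.36 RPKM (± SD), 12.3-fold apart. The log2 fold change on the log2(RPKM + 0.5) scale, which understates changes of low genes, was -2.53 ± 0.27 (SE) by limma, with an adjusted p of 0.0126. By exact permutation of the 6 libraries p was 0.1, which is as small as this design permits. In bulk RNA a fall in the cells that express a gene and a loss of such cells cannot be told apart.

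Zfp951 had been known to be the largest fall before its values were taken up here. It also reached the limit of 1 RPKM only through EB3, as every clone was below that limit. Its values and the limma result are therefore given as a description. The adjusted p moved above 0.05 in several alternatives, to 0.0860 without C4, 0.0707 without EB3-1, 0.0716 without EB3-2, 0.0674 when the mean of EB3-1 and EB3-2 stood for both, and 0.0974 with no filter on low genes. The log2 fold change stayed between -3.74 and -2.0 under every alternative run. No protein-coding transcript of another gene matched Zfp951 over at least 200 bases at 90% identity or more. Transcripts that are not protein-coding were not searched.

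**Figure D1:**
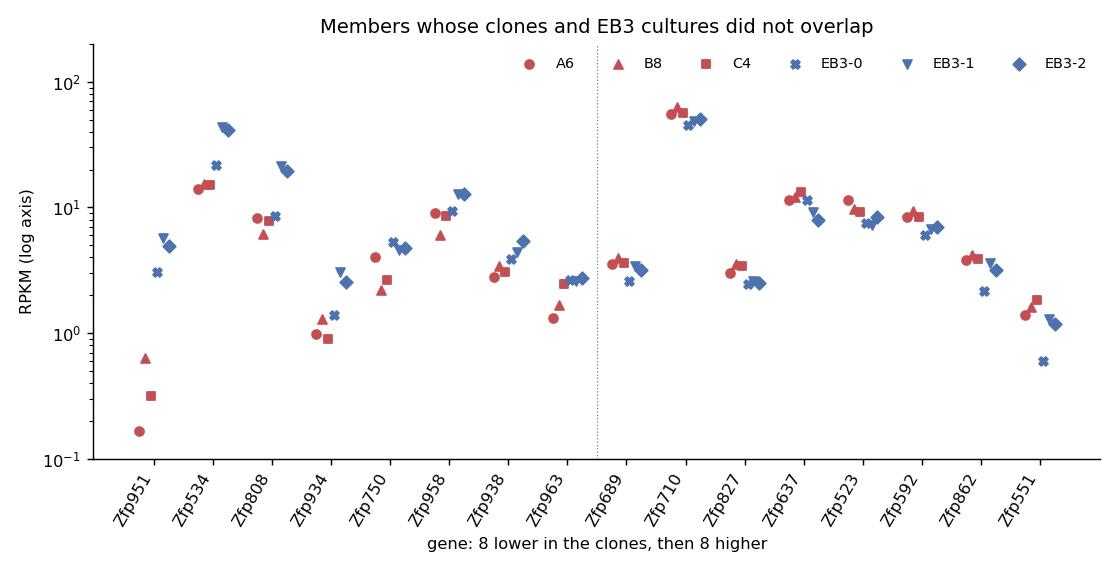
RPKM on a log axis in each of the 6 libraries (red, Sim2 clones A6, B8 and C4; blue, EB3 cultures 0, 1 and 2) for the 8 members with the largest lower and the 8 with the largest higher fold changes among those whose groups did not overlap. Zfp951 is the only one of them with a wide gap between the groups, from 0.628 RPKM in B8 to 3.04 in EB3-0, while EB3-0 lies next to the clones for Zfp808 and Zfp934.

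No tested neighbour of Zfp951 was called. Within 500 kb of it the table lists 12 genes, none of them a member, and 4 of them reached the limit for testing. Spp1, which encodes the secreted matrix protein osteopontin, was abundant, with 406, 606 and 353 RPKM in A6, B8 and C4 and 505, 549 and 517 RPKM in the EB3 cultures (log2 fold change -0.24 ± 0.19 SE, adjusted p = 0.546). Pkd2, which encodes the cation channel polycystin-2, had means of 17.9 ± 0.630 and 18.8 ± 5.58 RPKM in clones and EB3 (SD, n = 3 each) and a log2 fold change of -0.02 ± 0.21. The log2 fold change was -0.28 ± 0.22 for D930016D06Rik and 0.47 ± 0.49 for BC005561. BC005561 was low in 1 control only, at 0.764 RPKM in EB3-0 where EB3-1 and EB3-2 had 4.74 and 4.54, and without EB3-0 its log2 fold change was -0.20. None of the 4 was called, and the lowest adjusted p among them was 0.546 (limma).

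The other 8 genes of the interval were under the limit, none with a mean above 0.306 RPKM. Mepe, on the same side as Spp1, and Gbp6 had 0 reads in all libraries. The 7 genes on the other side are Abcg3, a membrane transporter gene of the ABC family, and the interferon-induced guanylate-binding protein genes Gbp8, Gbp9, Gbp4, Gbp10, Gbp6 and Gbp11. Together they held 46, 54 and 20 reads in A6, B8 and C4 and 71, 102 and 107 reads in EB3-0, EB3-1 and EB3-2, so every clone had fewer than every control. For 2 of the 7, Abcg3 and Gbp4, the groups did not overlap. Every clone was lower in 13.4% of all tested genes, and no such share was taken over genes under the limit. Abcg3 had only 0, 0 and 2 reads in the clones and 4, 10 and 5 in EB3. Gbp4 had 18, 34 and 10 reads in the clones and 39, 58 and 58 in EB3. With no filter on low genes, the lowest adjusted p among these 7 was 0.302 (limma). The nearest members on the chromosome were Zfp644, Zfp932 and Zfp605, which begin 107045760 bases and further along it, and none of them was called.

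**Figure D2:**
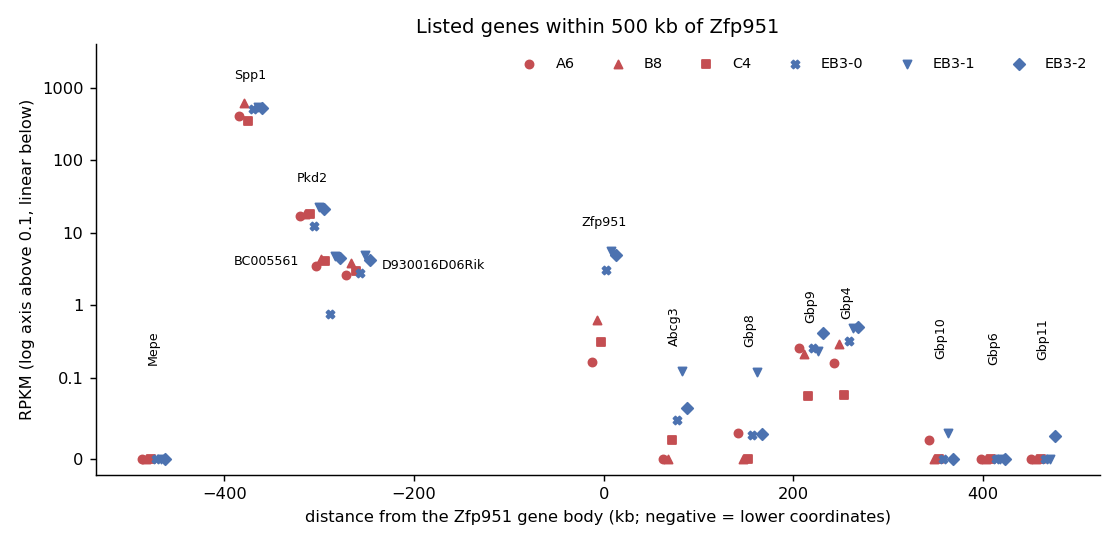
RPKM in each library (log axis above 0.1, linear below) of the 13 listed genes in the interval, Zfp951 included, placed by distance in kb from the Zfp951 gene body. Clones (red) and EB3 cultures (blue) are separated by a wide gap for Zfp951 alone, the 4 tested neighbours overlap, and the 7 genes to the right are near 0.

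Zfp951, which passed the limit only through EB3, was also the only member called. Over all 11595 tested genes 0.699% were called at an adjusted p under 0.05, and 0.354% were called and lower, beside 1 of 134 members (0.746%). At an unadjusted p under 0.05, 11 members were lower and 5 were higher, which are 8.21% and 3.73% of the members beside 9.36% and 8.40% of all tested genes. In 15 members the 3 clones all lay below the 3 EB3 cultures (11.2%, beside 13.4% of all tested genes), and in 13 they all lay above (9.70%, beside 12.7%). These shares are near or below those of all genes. The median log2 fold change was -0.06 over the members and -0.01 over all tested genes.

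Among the 14 members other than Zfp951 whose clones lay below EB3, the largest difference was that of Zfp534, a KRAB gene of the chromosome 4 family with 15 fingers. Its level was 13.996, 15.435 and 15.160 RPKM in A6, B8 and C4, and 21.9, 43.6 and 41.1 RPKM in EB3-0, EB3-1 and EB3-2. The clones lay close together and EB3-0 lay nearer to them than to the other controls. The log2 fold change was -1.17 ± 0.24 (SE), and the adjusted p of 0.0738 missed the threshold. It passed with the trend of each library with transcript length removed (adjusted p = 0.0428), with length and GC trends removed (0.0163, at a smaller fold change of -0.74) and without EB3-0 (0.00277).

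Zfp808, a KRAB gene with 22 fingers, had 8.19, 6.12 and 7.86 RPKM in the clones and 8.61, 21.4 and 19.4 RPKM in EB3, a log2 fold change of -1.01 ± 0.31 (adjusted p = 0.154). EB3-0 was only just above A6. Its copy Zfp934 had 0.981, 1.28 and 0.902 RPKM in the clones and 1.39, 3.05 and 2.55 RPKM in EB3 (-0.82 ± 0.25, adjusted p = 0.154), with EB3-0 again beside the clones. The transcripts of Zfp808 and Zfp934 are 95.8% identical over 1419 bases, and how reads with several equal positions were assigned is not given in the sources used here, so their values may not be independent.

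Zfp750, a regulator of epidermal differentiation, had 4.07, 2.20 and 2.65 RPKM in the clones and 5.32, 4.54 and 4.76 RPKM in EB3 (-0.66 ± 0.21, adjusted p = 0.157). It was the only member without a KRAB box among the 15, and EB3-0 was here the highest control. It lies within Tbcd, a gene on the opposite strand with 11.4 RPKM, and without strand the reads of both cannot be told apart. The log2 fold changes of the next 3, the KRAB genes Zfp958, Zfp938 and Zfp963, were -0.54 ± 0.19, -0.49 ± 0.16 and -0.48 ± 0.20. With length and GC trends removed they were -0.19, -0.10 and -0.32. Of the 15 members with clones below EB3, 11 had a value more than 1.5 times smaller under that setting, and all 15 kept their sign. In Zfp963 the gap between the groups was small, from 2.47 RPKM in C4 to 2.61 in EB3-1.

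Differences in the other direction were smaller. The largest among the 13 members whose clones all lay above EB3 was that of Zfp551, a KRAB gene near the limit, with 1.40, 1.61 and 1.85 RPKM in the clones and 0.596, 1.30 and 1.18 RPKM in EB3 (0.50 ± 0.23, adjusted p = 0.295). Zfp862 followed with 3.85, 4.19 and 3.86 against 2.14, 3.62 and 3.19 RPKM (0.38 ± 0.19). In both, EB3-0 was the lowest library. Zfp592 had 8.33, 9.32 and 8.40 RPKM in the clones and 6.04, 6.78 and 6.95 in EB3 (0.37 ± 0.12, adjusted p = 0.168), and here the groups were tight. The log2 fold change of Zfp592 was 0.18 with length and GC trends removed.

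Zfp592 belongs with Zfp687 and Zfp532 to a set of proteins that join the chromatin reader ZMYND8. Zfp687 was also higher in every clone, at 15.1 ± 0.544 against 13.1 ± 1.35 RPKM (SD, n = 3 each, log2 fold change 0.21 ± 0.11, adjusted p = 0.386), and it overlaps Pi4kb on the opposite strand. Zfp532 had 50.4, 36.0 and 53.5 RPKM in the clones and 38.1, 54.6 and 55.2 RPKM in EB3, and the groups overlapped (-0.08 ± 0.19). The direction for Zfp532 changed with single libraries left out, from 0.09 without B8 to values below 0.

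The other members with clones above EB3 included Zfp523 (0.37 ± 0.13), Zfp637 (0.36 ± 0.15), Zfp827 (0.33 ± 0.14), Zfp710 (0.27 ± 0.09) and Zfp689 (0.25 ± 0.15), none of them called (adjusted p from 0.193 to 0.424). Zfp827, whose human counterpart brings a chromatin remodelling complex to telomeres, had 2.98, 3.52 and 3.43 RPKM in the clones and 2.47, 2.58 and 2.52 RPKM in EB3. Of the 13 members, 10 had no KRAB box, 2 had one (Zfp551 and Zfp689) and Zfp862 was not classified. These values also shrank with length and GC trends removed, a setting without a value for Zfp862. The median of the other 12 went from 0.26 to 0.09, and all 12 kept their sign. Only Zfp551 and Zfp637 became larger, at 0.56 and 0.40.

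None of the 5 most abundant members was called. Zfp553 had the highest mean, with 83.6, 93.7 and 88.7 RPKM in the clones and 80.9, 73.8 and 80.3 RPKM in EB3 (0.18 ± 0.09, adjusted p = 0.330). The other 4 of the top 5 were Zfp961 with a mean of 59.9 RPKM (-0.13 ± 0.10), Zfp598 with 57.3 (0.04 ± 0.08), Zfp568 with 55.3 (0.09 ± 0.16) and Zfp710 with 53.3. Zfp598 encodes the ubiquitin ligase that senses collided ribosomes and is no DNA-binding repressor, and its 6 values lay between 56.1 and 60.8 RPKM.

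Several members are known by function, and 14 of a list of 20 of these were members (Zfp622 lies on chromosome 15, Zfp521, Zfp703 and Zfp711 were under the limit, and no row carries the names Zfp638 and Zfp982). None of the 14 was called, 5 had a log2 fold change below 0 and 9 above. Zfp568, which represses a placental transcript of Igf2, had 54.7, 55.9 and 59.3 RPKM in the clones and 40.1, 59.8 and 62.0 RPKM in EB3. Only EB3-0 stood apart. Zfp809, which binds the primer binding site of murine leukaemia viruses and related endogenous retroviruses, had 23.6, 27.1 and 22.2 RPKM in the clones and 12.4, 27.4 and 24.2 in EB3 (0.26 ± 0.26). Here too EB3-0 was low and the other 5 libraries overlapped, and for both genes the fold change without EB3-0 was below 0 (-0.10 for Zfp568 and -0.09 for Zfp809).

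Zfp708, a KRAB gene that acts on a class of endogenous retroviral repeats, had 1.48, 1.67 and 1.55 RPKM in the clones and 2.11, 2.68 and 2.34 in EB3 (-0.48 ± 0.16, adjusted p = 0.172). Its pattern was the most like that of Zfp951 among the members, with Pearson's r of 0.985 over the 6 libraries on the log2 scale, followed by Zfp825 (0.962) and Zfp534 (0.947). These coefficients share the same 6 libraries and are descriptions. Zfp932, which represses endogenous retroviruses together with its close copy Gm15446, had 6.90 ± 1.18 and 9.63 ± 2.31 RPKM in clones and EB3 (-0.44 ± 0.20, adjusted p = 0.305), and the groups overlapped. Its transcript matches that of Gm15446 at 97.4% over 1765 bases, so reads may have been split between them. Zfp819, another KRAB gene studied for transposon repression in pluripotent cells, had 27.5 ± 3.32 and 23.8 ± 1.08 RPKM (0.20 ± 0.11).

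Members that act on other targets had small fold changes. Zfp644, which guides the methyltransferases G9a and GLP, had 15.0 ± 0.873 and 13.9 ± 4.205 RPKM (0.16 ± 0.21). Zfp746 (PARIS), a repressor of the gene for PGC-1alpha, had 12.1 ± 0.307 and 11.4 ± 0.555 RPKM (0.09 ± 0.10). Zfp516, a factor of the brown fat programme, had 4.96 ± 0.314 and 5.74 ± 1.29 RPKM (-0.17 ± 0.17), and Zfp597 had 2.95 ± 0.406 and 2.79 ± 0.700 RPKM (0.09 ± 0.20). The SDs are over 3 clones or 3 cultures.

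The members fell into 14 positional clusters, runs of at least 3 members with gaps of at most 500 kb, which held 74 of the 134. Zfp951 was in none of them. The median log2 fold change per cluster ran from -0.82 to 0.17 and was below 0 in 8 clusters. Members of the same cluster had values closer to each other than members at large. Over the 186 pairs within a cluster the median difference in log2 fold change was 0.14 and 62.9% of pairs had the same sign, and over the 8725 other pairs these were 0.27 and 51.0%. Pairs share genes, neighbours share sequence, and no test was made of this contrast.

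The cluster with the lowest median held Zfp808, Zfp935 and Zfp934 on chromosome 13 (62231250 to 62659959). Its log2 fold changes were -1.01, -0.26 and -0.82, with a median of -0.82. Zfp935, the copy between the others, had 4.14, 5.01 and 4.05 RPKM in the clones and 3.20, 7.13 and 6.53 RPKM in EB3, so that EB3-0 lay below all 3 clones. Its fold change was 0.09 once the trends with length and GC content were removed. In all 3 genes EB3-0 lay below the other controls, by a median of 0.98 on the log2 scale.

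On chromosome 17 (21704010 to 23004101) 8 KRAB members formed the longest cluster, Zfp948, Zfp760, Zfp820, Zfp942, Zfp943, Zfp944, Zfp946 and Zfp945. In 7 of the 8 the fold change was below 0, from -0.50 to -0.34, and Zfp820 had 0.06 ± 0.21. The cluster's median was -0.40, and it was -0.10 with length and GC trends removed and -0.64 without EB3-0. Taken clone by clone against the EB3 mean, the medians were -0.33 (A6), -0.41 (B8) and -0.39 (C4), so the clones lay together. EB3-0 in turn lay 0.63 below the mean of the other EB3 cultures. Only in Zfp760 did the groups not overlap, with 4.51, 4.53 and 4.11 RPKM in the clones and 4.88, 7.54 and 6.41 in EB3 (-0.45 ± 0.17, adjusted p = 0.216).

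The other clusters made only of KRAB members lay on both sides of 0. On chromosome 8 (71732945 to 72298810) all 5 members, Zfp930, Zfp868, Zfp869, Zfp963 and Zfp866, had values below 0, with a median of -0.29. On chromosome 13 (67170334 to 67784449), 4 of 6 members, Zfp708 among them, had values below 0 (median -0.27), and so did all 9 other tested KRAB genes of that span, which have other names (median -0.23). A second chromosome 17 cluster of 7 members (32902442 to 33247649) had a median of -0.08. On chromosome 7, 5 KRAB members (50432958 to 50873649) had a median of 0.03 with 3 above 0, 3 others (7067394 to 7162709) had 0.04, and 4 (30601091 to 30875529) had -0.12. The 4 KRAB members of a second chromosome 8 cluster (74405967 to 74494232) had -0.08. The lower medians shrank with length and GC trends removed, to -0.43 for the cluster of Zfp808, -0.06 for that of Zfp708 and -0.15 for that of Zfp930. Without EB3-0 these 3 were -1.09, -0.50 and -0.45.

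The cluster with the most members, 10 on chromosome 7 (134376957 to 135029510), had the opposite sign. This cluster had a median of 0.17, and of 0.08 with length and GC trends removed. It mixes 4 KRAB genes with 6 others, namely Zfp553, Zfp771, Zfp768, Zfp747, Zfp764, Zfp688, Zfp689, Zfp629, Zfp668 and Zfp646. In 8 of the 10 the value was above 0, and for Zfp553, Zfp689 and Zfp668 every clone lay above every control. Zfp668 had 10.8 ± 0.552 and 9.26 ± 0.535 RPKM (0.22 ± 0.11), and Zfp646, which has 27 fingers, had 27.2 ± 3.15 and 23.1 ± 2.70 RPKM (0.23 ± 0.13). Zfp771 had 0.16 ± 0.15, Zfp768 0.26 ± 0.21, Zfp688 0.15 ± 0.15 and Zfp747 0.01 ± 0.11. The exceptions were Zfp764 (-0.22 ± 0.19) and Zfp629 (-0.24 ± 0.36). The 17 tested genes of the same span that are no zinc finger genes of these kinds had a median of 0.01.

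A cluster of 6 members on chromosome 6 (47769265 to 48573226) had a median of 0.13. No KRAB box was found by pattern in these members, of which Zfp862 had no transcript to search. Another 6 members on chromosome 7 (4866819 to 5005325), none with a match to the pattern, had 0.02. With length and GC trends removed the medians of these clusters were -0.003 and -0.02, so both lost their sign. None of the members in any of the 14 clusters was called.

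**Figure D3:**
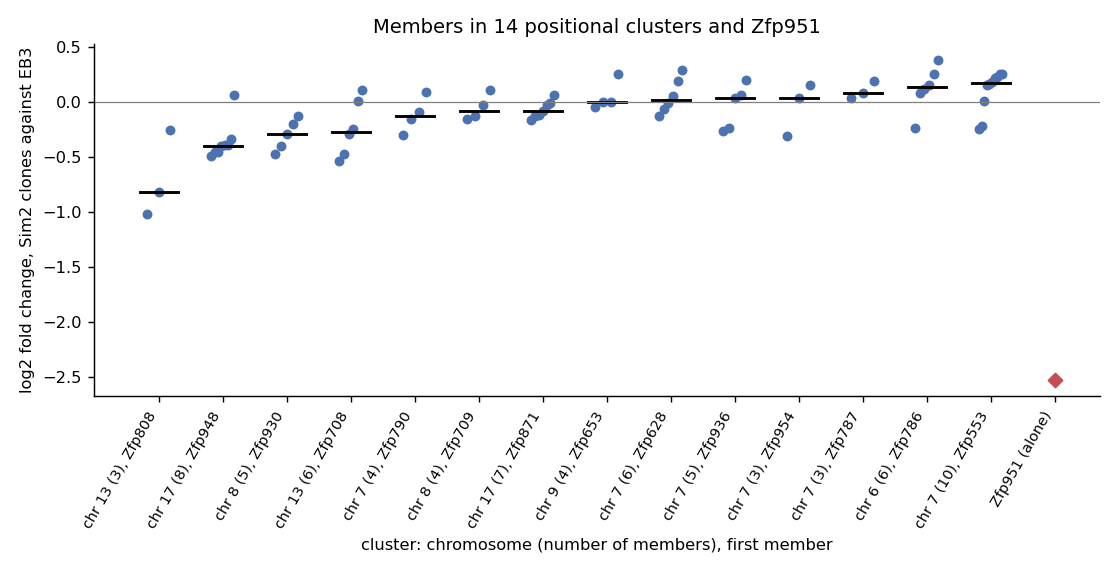
Log2 fold change (Sim2 clones against EB3) of each member of the 14 positional clusters, ordered by cluster median (black bars), with the cluster's chromosome, size and first member on the axis, and Zfp951 at the right. Cluster medians run from -0.82 to 0.17, and no clustered member comes near the value of Zfp951, -2.53.

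Zfp534 and Zfp600 sit with Zfp933 on chromosome 4, too far apart to count as a cluster at 500 kb. Zfp600 had 7.15, 12.6 and 8.04 RPKM in the clones and 7.42, 21.6 and 19.8 RPKM in EB3 (-0.69 ± 0.38, adjusted p = 0.398), so EB3-0 lay among the clones. Zfp933 had a log2 fold change of -0.24 ± 0.29. A window of 1000 kb around these 3 members, chosen after their values had been seen, held 10 further tested KRAB genes with other names. All 10 had values below 0, from -1.11 to -0.41 with a median of -0.89. None was called, and 8 had an unadjusted p under 0.05 (limma), beside 9.36% of all tested genes that were lower at that level. Transcripts there are close copies (Zfp534 matches Gm13225 at 90.9% over 2170 bases, and Zfp600 matches Gm13138 at 92.3% over 3173), so their reads may be shared. In all, 25 members have such a near copy among protein-coding transcripts.

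Split by protein class, KRAB members lay lower than the rest. The median log2 fold change was -0.15 for the 79 KRAB members, of which 56 (70.9%) were below 0, and 0.09 for the 54 without the box, of which 23 (42.6%) were below 0. The KRAB median was -0.34 without EB3-0, with 70 of 79 below 0, and -0.07 with EB3-1 and EB3-2 averaged, with 52 below 0. Over all tested genes 50.9% were below 0. The clones lay below EB3 without overlap in 14 KRAB members (17.7%) and 1 without the box (1.85%), beside 13.4% of all tested genes. They lay above it in 2 (2.53%) and 10 (18.5%), beside 12.7%. Among Zfp1 to Zfp499 the shares below were 14.3% with a KRAB box and 6.67% without, and those above 4.76% and 9.33%. Zinc finger genes Zfp1 to Zfp499 under the same limits had medians of -0.09 (63 with a KRAB box) and -0.001 (75 without). The 49 KRAB zinc finger genes with other kinds of name had -0.23, with 46 of them below 0.

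**Figure D4:**
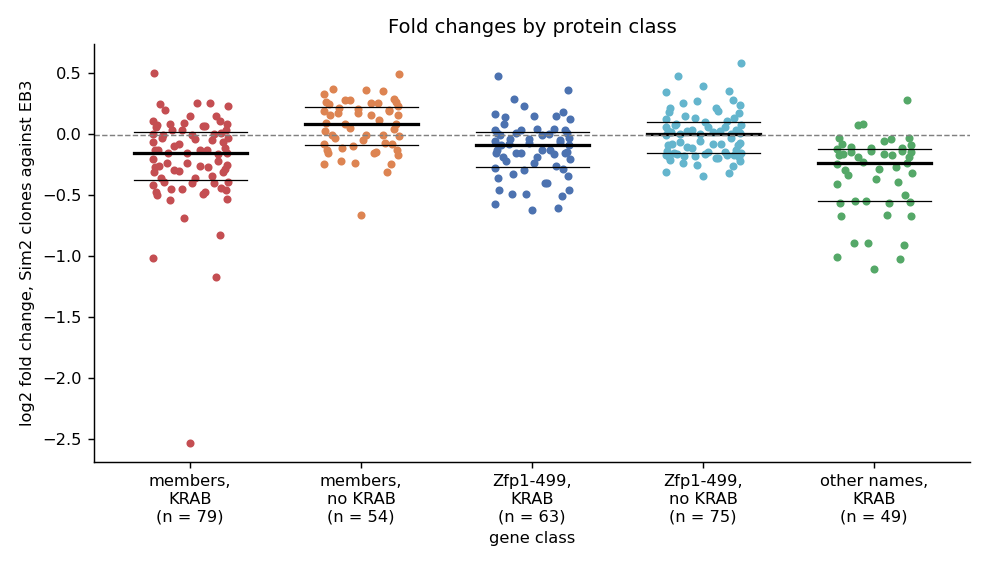
Log2 fold change (Sim2 clones against EB3) of each gene by protein class, with medians as thick and quartiles as thin bars and the median of all tested genes as a dashed line. KRAB members centre on -0.15 and members without the box on 0.09, and KRAB genes outside the members also lie below the dashed line.

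The medians by number of fingers did not follow the KRAB counts throughout. Members with 0 to 3 matches had a median of -0.01 (16 genes, 1 with a KRAB box), those with 4 to 9 had 0.02 (42 genes, 19 with a box), those with 10 to 14 had -0.13 (47 genes, 38 with a box) and those with 15 or more had -0.12 (28 genes, 21 with a box).

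The classes also differed among the EB3 cultures. On the log2 scale, relative to each gene's mean, the median KRAB member stood at -0.10 in A6, -0.07 in B8 and -0.08 in C4, at -0.22 in EB3-0, and at 0.28 in EB3-1 and 0.24 in EB3-2. The clones thus lay between the controls, and EB3-0 was the lowest library of all. In 69 of 79 KRAB members (87.3%) EB3-0 was below both other controls, beside 24 of 54 members without the box (44.4%) and the 45.5% of all tested genes given above. Among Zfp1 to Zfp499 the same held for 55 of 63 KRAB genes (87.3%) and 57 of 75 without the box (76.0%). With the trends with transcript length and GC content removed, the class medians were -0.06 and 0.01. What part base composition has in the class difference was not tested further.

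**Figure D5:**
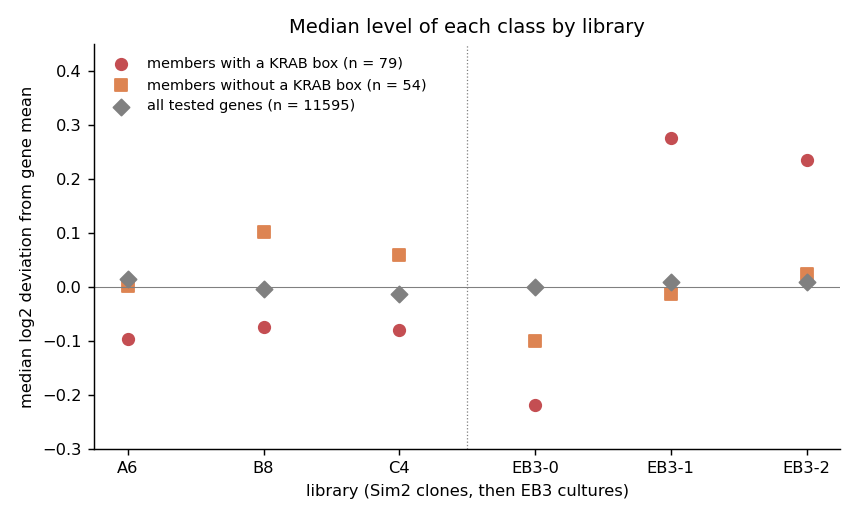
Median log2 deviation from each gene's mean over the 6 libraries, for KRAB members, members without the box and all tested genes. KRAB members are low in the 3 clones (-0.10 to -0.07), lowest in EB3-0 (-0.22) and high in EB3-1 and EB3-2 (0.28 and 0.24), while all genes stay near 0.

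Leaving EB3-0 out changed the count of called genes, which went from 81 to 694 over all tested genes. What part the KRAB values of EB3-0 have in the change among the members was not tested. Against EB3-1 and EB3-2 alone, 16 members were called and all were lower (11.9%, beside 3.45% of all tested genes), and 0 were called higher, beside 2.54% of all genes (limma, adjusted p under 0.05). Of the 16, 15 had a KRAB box. They were Zfp951 (-2.77), Zfp534 (-1.48), Zfp808 (-1.41), Zfp600 (-1.16), Zfp934 (-1.09), Zfp945 (-0.74), Zfp942 (-0.72), Zfp960 (-0.64), Zfp760 (-0.61), Zfp930 (-0.60), Zfp825 (-0.55), Zfp936 (-0.53), Zfp748 (-0.51), Zfp871 (-0.47) and Zfp868 (-0.45). The member without the box was Zfp654 (-0.64), which had 5.49 RPKM in EB3-0 against 11.6 and 11.0 in the other controls and 6.44 to 7.43 in the clones. Without EB3-1 or without EB3-2 no member was called, and only 0.0517% of all tested genes were called in each of these settings. Apart from Zfp951, and from Zfp534 with trends removed, none of the 16 was called in any setting run that kept EB3-0.

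No gene on a list of those through which KRAB proteins act was called. All 26 were tested, 6 had an unadjusted p under 0.05 (23.1%, beside 17.8% of all tested genes), and the median log2 fold change was 0.00. Trim28 had 809, 779 and 829 RPKM in the clones and 944, 788 and 811 RPKM in EB3 (-0.07 ± 0.11, adjusted p = 0.793), and its groups overlapped. Setdb1 had 58.5, 49.4 and 54.4 RPKM in the clones and 40.4, 47.5 and 47.2 RPKM in EB3 (0.26 ± 0.10, adjusted p = 0.245), with every clone above every control. That held for 4 of the 26 (15.4%, beside 12.7% of all tested genes), the others being Chd4, Ehmt2 and Dnmt1. Every clone lay below every control in 5 (19.2%, beside 13.4%), namely Cbx3, Chd3, Zfp57, Hdac1 and Hdac2. Without EB3-0, 2 partners were called (7.69%, beside 5.99% of all tested genes), Cbx3 (-0.89) and D14Abb1e (-0.62), an HP1 protein gene and the former symbol of a gene of the HUSH silencing complex. The limit on chromosomes was not applied to this list, and D14Abb1e lies on chromosome 14.

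The members were also looked up among genes near SIM2-bound chromatin, with no test. Among the genes assigned to the SIM2-bound regions closest to them were 6 members (4.48%), Zfp532, Zfp619, Zfp667, Zfp710, Zfp825 and Zfp867, beside 1169 of the 11595 tested genes (10.1%). Zfp951 was not among them. Their log2 fold changes ran from -0.45 in Zfp825 to 0.27 in Zfp710, 3 on each side of 0. Zfp825 had 10.03 ± 0.0669 and 13.97 ± 1.71 RPKM (-0.45 ± 0.12, adjusted p = 0.116). Looped contacts of a gene's promoter with such a region were listed for 4 members, Zfp553, Zfp710, Zfp760 and Zfp930 (2.99%, beside 2.08% of tested genes).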

How the data were processed

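Libraries of mRNA came from 6 cultures of mouse embryonic stem cells. The authors mapped reads to mm9 with BWA (version not given in the sources used here), counted exon coverage of RefSeq genes and deposited RPKM values, with gene positions and cDNA lengths. Strand use and the treatment of reads with several positions are not given in the sources used here. Every column of sample values was used, with 0 set aside.

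Values were tested as log2(RPKM + 0.5) with limma 3.58.1 (R 4.3.3; lmFit, eBayes with an intensity trend, Benjamini-Hochberg over all 11595 genes with a mean of at least 1 RPKM, adjusted p under 0.05), without covariates. RPKM values suit no count model. Multiplied by cDNA length, 100% of values were whole multiples (within 0.1) of the worth of 1 read in their library, which gave the reads. At 2 kb, 1 read is worth 0.0177 to 0.0199 RPKM. Members of a group are separate cultures, so p-values measure the spread between 3 clones and between 3 cultures of 1 line. Exact permutation tests were 2-sided.

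Positions agreed by overlap with the NCBIM37 annotation for 133 of 134 members and are 1-based. KRAB boxes and C2H2 fingers were found by pattern in the longest translated coding sequence. Near copies were sought among protein-coding transcripts only, with blastn 2.17.0 (at least 90% identity over 200 bases). Genes nearest to SIM2-bound regions and genes with looped contacts to them were taken from the study's lists. The scripts were tested on simulated data.

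Named genes were Zfp951 and listed genes within 500 kb, called members, up to 8 lower and 8 higher members whose groups did not overlap, the 5 most abundant, members of known role, those of the largest clusters, those nearest the limit, and the member most like Zfp951. The members, lists and rule were chosen with earlier results of these data known. Zfp654, Zfp933, Zfp935 and other members that carry a count were named after their values were seen. Alternatives were other pseudocounts (0.1 and 1), no filter, libraries left out or averaged, centring, trends removed, voom on recovered reads, and cluster gaps of 250 and 1000 kb.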

Additional observations from a re-analysis of the deposited data

How the results depend on the processing

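No paired analysis was possible because the clones and the EB3 cultures share no replicate number. The count of called members, reported as 1, moved with that of all genes, reported as 81. It was 0 with no filter on low genes (23 of all genes) and with EB3-1 and EB3-2 averaged (6), and 2 with the length trend (250) or the length and GC trends removed (194). With 1 library left out it ranged from 0 to 16, with 16 without EB3-0 (694) and 0 without C4 (7), EB3-1 (6) or EB3-2 (6). The log2 fold change of Zfp951 kept its sign and ranged from -2.77 to -2.35 with 1 library left out. Its call was lost at -2.53 with no filter and at -2.42 with EB3-1 and EB3-2 averaged. The count of called partner genes ranged from 0 to 2, and was 2 without EB3-0. The difference between the class medians was -0.24, with a standard deviation between libraries of 0.16, pooled within the clones and within EB3. With length and GC trends removed this difference was -0.072. It ranged from -0.38 without EB3-0 to -0.16 without EB3-1 with 1 library left out. The length and GC setting for classes and clusters and the averaged setting for classes were chosen after seeing the data. The cause was not tested for any of these.

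Of 53 other named genes, 31 kept their direction and side of the threshold under every alternative. No gene whose direction changed was called. With EB3-1 and EB3-2 averaged, Pkd2 was 0.11 and Zfp532 was 0.0072. With the length trend removed Zfp568 was -0.023. With length and GC trends removed Zfp568 was -0.070, Zfp598 -0.097, Zfp746 -0.050, Zfp747 -0.038, Zfp935 0.086 and Zfp961 0.0020. With libraries centred on their median Zfp747 was -0.0060. With 1 library left out, values ranged from -0.20 to 0.83 for BC005561, from -0.29 to 0.13 for Pkd2, from -0.12 to 0.011 for Trim28, from -0.25 to 0.095 for Zfp532, from -0.10 to 0.21 for Zfp568, from -0.10 to 0.20 for Zfp597, from -0.69 to 0.052 for Zfp629, from -0.11 to 0.32 for Zfp644, from -0.015 to 0.029 for Zfp747, from -0.087 to 0.47 for Zfp809 and from -0.14 to 0.20 for Zfp820.

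Depth limits the lowest genes, since Zfp951 rests on 12 to 47 reads in the clones. EB3-0 stands apart. The call of Zfp951 held without it, and 15 further members were called in its absence.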
